A study of Homo sapiens with 42 samples.

Results

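The starting state of a ligand perturbation experiment was compared here with cells that received no ligand at all. The cells were MCF10A, an established line from human breast epithelium that does not form tumours. Their open chromatin was profiled by ATAC-seq, in which a transposase cuts and tags DNA that is not packed away by nucleosomes. The 3 libraries labelled PBS at 48 h, replicates A to C, were set against the 4 libraries labelled ctrl at 0 h, replicates A to D, which are 7 of the 42 ATAC-seq libraries analysed. The remaining libraries, in 11 further groups, entered as a common estimate of spread and of how often each site is found, and 2 of those groups are also named where lost sites were present in them.

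Both groups were grown without added growth factors before sampling, and they differed in how long. CTRL cells had been in medium without EGF and insulin for 18 h when they were collected. PBS cells then spent another 48 h in fresh medium of the same kind with PBS, the vehicle of the ligands. That medium still held horse serum, hydrocortisone, which is an agonist of the glucocorticoid receptor, and cholera toxin, which raises cAMP, in both groups. EGF and insulin were thus absent from both, for different lengths of time. One line in culture was used throughout. The labels give replicate letters, and the p-values below measure the spread between these libraries.

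MCF10A cells depend on EGF to divide. EGF activates the receptor tyrosine kinase EGFR and, through ERK, the genes of the AP-1 proteins of the FOS and JUN families, which bind the sequence TGANTCA at a large part of the enhancers of epithelial cells. RUNX and TEAD factors often sit at the same enhancers. Promoters of broadly used genes carry another set of elements, such as the GC boxes of SP and KLF proteins and the sites of NRF1, an activator of genes of respiration. The glucocorticoid receptor enters the nucleus after it has bound hormone and opens chromatin at its own palindromic element.

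Sequences of sites on which the comparison turned are printed first, as the + strand of hg38, 5′ to 3′. The first set shows 3 sites found with PBS and not in CTRL (FOXQ1, ENSG00000250803 and DEFB115, each named for the nearest gene start) and the intron sites of TRABD2B and ABCC5, which hold a glucocorticoid receptor element. Capitals mark the CEBP element, TTGCNNAA, in the FOXQ1 and ENSG00000250803 sites, and the glucocorticoid receptor element in the sites of TRABD2B and ABCC5. Capitals mark nothing in the DEFB115 window.
FOXQ1, chr6:1135816-1135952: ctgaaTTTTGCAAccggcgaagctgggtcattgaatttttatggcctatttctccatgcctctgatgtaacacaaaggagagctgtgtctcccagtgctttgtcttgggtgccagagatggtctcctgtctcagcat
ENSG00000250803, chr5:122165790-122165920: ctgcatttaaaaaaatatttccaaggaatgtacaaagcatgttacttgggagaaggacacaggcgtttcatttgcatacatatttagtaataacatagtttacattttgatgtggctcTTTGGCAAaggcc
DEFB115, chr20:28825011-28825131: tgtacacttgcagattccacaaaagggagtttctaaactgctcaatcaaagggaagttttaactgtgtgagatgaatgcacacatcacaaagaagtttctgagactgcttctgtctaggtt
TRABD2B, chr1:47963711-47963871: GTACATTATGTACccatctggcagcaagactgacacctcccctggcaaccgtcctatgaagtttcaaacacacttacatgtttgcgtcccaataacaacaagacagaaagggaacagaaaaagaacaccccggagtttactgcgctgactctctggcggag
ABCC5, chr3:183980567-183980687: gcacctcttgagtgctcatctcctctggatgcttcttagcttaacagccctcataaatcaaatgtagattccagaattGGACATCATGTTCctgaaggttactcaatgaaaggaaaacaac

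The second set shows sites that were weaker or not found with PBS. The windows near GADL1 and in the LRMDA intron had a peak in all 7 libraries that was lower with PBS, and capitals mark the AP-1 element TGANTCA, which occurs 3 times in the first and 1 time in the second. The windows near CPHXL, PLEKHG7 and CLINT1 had a peak in every CTRL library and in no PBS library, and capitals mark a RUNX element, TGTGGTT, in the CPHXL window and nothing in the last pair. The sites of TRABD2B, ABCC5, GADL1 and LRMDA were chosen for their motif after their values were seen, and the other 6 by the order of their adjusted p.
GADL1, chr3:31077173-31077322: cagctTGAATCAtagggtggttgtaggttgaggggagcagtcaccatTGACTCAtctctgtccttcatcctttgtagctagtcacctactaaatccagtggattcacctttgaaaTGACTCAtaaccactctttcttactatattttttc
LRMDA, chr10:76103396-76103553: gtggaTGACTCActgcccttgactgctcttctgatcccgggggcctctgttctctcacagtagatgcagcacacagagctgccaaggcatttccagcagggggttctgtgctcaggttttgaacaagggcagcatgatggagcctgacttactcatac
CPHXL, chr16:75996673-75996817: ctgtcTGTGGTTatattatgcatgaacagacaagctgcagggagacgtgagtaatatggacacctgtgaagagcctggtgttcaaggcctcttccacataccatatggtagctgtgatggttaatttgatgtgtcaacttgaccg
PLEKHG7, chr12:92593984-92594104: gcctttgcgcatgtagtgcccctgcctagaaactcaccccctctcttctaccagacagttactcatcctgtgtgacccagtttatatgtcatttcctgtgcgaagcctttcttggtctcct
CLINT1, chr5:158385145-158385265: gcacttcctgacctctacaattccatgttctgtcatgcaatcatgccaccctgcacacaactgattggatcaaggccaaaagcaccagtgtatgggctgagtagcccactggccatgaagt

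PBS libraries held far fewer peaks than CTRL libraries, and a larger share of them lay at gene starts. A peak is an interval in which the authors' caller found more fragments than in the local background, at a q of at most 0.01. CTRL libraries A, B, C and D held 111209, 113656, 109226 and 113805 peaks. PBS libraries A, B and C held 51628, 51525 and 16265. The groups did not overlap, and the geometric mean with PBS was 0.314 times that of CTRL (difference in log10 peak number −0.504, exact permutation test over the 35 splits of 3 and 4 libraries, two-sided p = 0.0286, the smallest p that 3 against 4 allows). PBS C stood apart from both other PBS libraries in peak number. The sites it held were mostly those of CTRL: of its 13430 sites among the merged sites described below, 91.5% had a peak in all 4 CTRL libraries, against 91.2% of 40691 for PBS A and 90.8% of 40016 for PBS B. Sites with a peak in no CTRL library made up 3.37% of those of PBS C, 1.01% for PBS A and 1.46% for PBS B. Results that rest on it are given with and without it.

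Peaks within 1000 bp of the start of a protein-coding transcript made up 21.1%, 19.8%, 19.6% and 20.1% of the peaks of CTRL A to D and 31.9%, 32.1% and 42.5% of those of PBS A to C. The difference between the means was 15.4 percentage points (exact permutation p = 0.0286, two-sided). Among the strongest peaks of every library, as many as PBS C held on the primary chromosomes, the share was 30.7% ± 1.6 (SD, n = 4) in CTRL and 47.0% ± 3.9 (SD, n = 3) with PBS. Promoter peaks numbered 22035 ± 817 in CTRL and 12924 ± 5410 with PBS, a ratio of 0.587. Distal peaks numbered 87283 ± 1934 and 25744 ± 14483, a ratio of 0.295.

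The 2 lane codes that the deposited files of both groups share gave the same direction. On lane L004, PBS B had 11.99 points more promoter peaks than CTRL D and a log10 peak number lower by 0.344. On lane L008, PBS A had 12.2 points more than CTRL C, and its log10 peak number was lower by 0.325. Each lane held 1 library per group, so there is no test within lanes, and PBS C shared its lane with no CTRL library. The files hold no read counts and the depth is unknown. The paper left out ATAC-seq samples with a low fraction of reads in peaks. The labels do not mark which these were, and all 42 libraries were used here. The background coverage recovered from fold enrichment and p at the summits was 1.14 ± 0.09 fragments per base in CTRL (SD, n = 4) and 1.00 ± 0.06 with PBS (SD, n = 3), with overlapping ranges (exact permutation p = 0.0857, two-sided). The part of depth and of signal over background in the peak number was not tested.

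**Figure D1:**
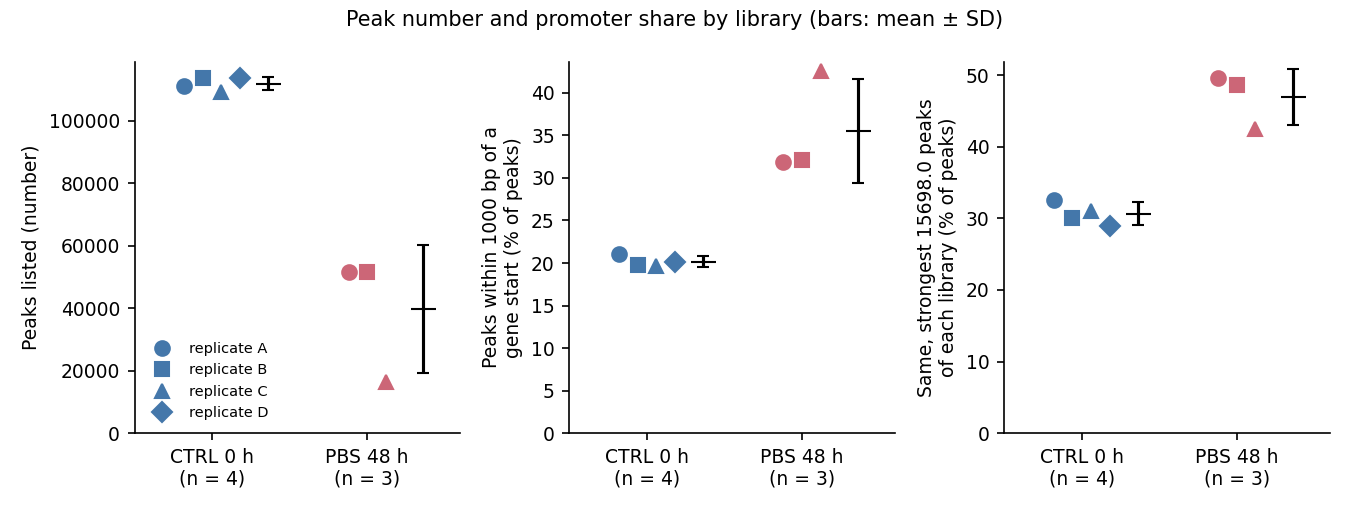
Peak number, the percent of peaks within 1000 bp of a gene start, and the same percent among the strongest peaks of each library, an equal number in each, 1 point per library for the 4 CTRL and 3 PBS 48 h libraries, with the mean ± SD beside each group. PBS C is the lowest library in peak number (16265) and the highest in promoter share (42.5%), and the groups do not overlap in any of the panels.

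Most promoters of basal mammary epithelium were open in CTRL and in PBS A and B, and so were most of the luminal and mesenchymal lists. Of 13 genes known for that layer, such as KRT5 and KRT17 (keratins), ITGB4 (adhesion to the basement membrane), 11 or 12 had a promoter peak in each CTRL library, 11 in PBS A and in PBS B, and 4 in PBS C. Of 12 luminal genes, 9 or 10 were open in each CTRL library, 8 in PBS A and in PBS B and 2 in PBS C. Of 13 mesenchymal genes, 11 or 12 were open in CTRL, 9 in PBS A and in PBS B and 2 in PBS C. Among all 19654 protein-coding genes, 67.0% were open in CTRL libraries on average and 59.2%, 58.5% and 33.5% in PBS A, B and C. KRT5 had its peak in 4 of 4 CTRL libraries and in PBS A and B, and KRT14 in 3 of 4 CTRL and in 0 of 3 PBS libraries. TP63, the master regulator of that layer, had no peak at its annotated starts in any of the 7 libraries. Of 15 markers of blood, vessel, fibroblast, muscle, liver and nerve cells, 1 or 2 were open in CTRL libraries (CD14 in 4 of 4, DCN in 2 of 4) and at most 1 in PBS libraries (CD14 in A and B). The remaining markers of that list had no promoter peak in any of the 7 libraries. CDKN2A, CDKN2B and MTAP, which MCF10A has lost by deletion, had no promoter peak in any of them.

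Sites of the starting cells were next followed into the PBS libraries. Peaks of the 7 libraries were merged where they overlapped by at least 1 bp, and 96766 merged sites, those found in 2 or more of the 7, were kept. Of these, 14.4% were promoter-proximal, 36.3% lay in introns, 2.27% in exons and 47.1% between genes. A peak was present in all 4 CTRL libraries at 66077 sites. PBS A held a peak at 56.2% of them, PBS B at 54.96% and PBS C at 18.6%. In comparison, each CTRL library held a peak at 93.9% to 95.7% of the sites found in the other 3.

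Promoters were kept more often than distal sites in every PBS library. Of 12475 promoter-proximal sites of the starting cells, 87.4%, 86.2% and 46.6% had a peak in PBS A, B and C. Of 53602 distal sites, over 1000 bp from any start, 48.9%, 47.7% and 12.1% did. Fold enrichment is the fragment pileup at the summit plus 1 over the local background plus 1, and sites were split into 5 equal strength classes by its mean log2 in CTRL. Promoters led in each class. In class 1, the weakest, PBS A kept 61.4% of promoters and 26.2% of distal sites, and in class 5, the strongest, 98.9% and 77.6%.

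Distal sites with an AP-1 element were kept less often than those without, in every strength class and in each of the 3 PBS libraries. There were 25742 distal sites with the element within 100 bp of the summit, on either strand, and 27860 without. In class 1 PBS A, B and C kept 18.6%, 19.1% and 1.82% of the first and 30.4%, 29.6% and 5.50% of the second. In class 5 the shares were 75.4%, 74.7% and 24.9% with the element and 81.3%, 80.8% and 34.1% without. Distal RUNX sites (4061) were kept at 42.5%, 42.5% and 9.58%, and distal TEAD sites (3575) at 43.97%, 42.7% and 11.2%, all below the shares of all distal sites.

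Distal sites with a glucocorticoid receptor element were kept more often. Of 393 such sites PBS A kept 63.1%, PBS B 62.6% and PBS C 26.7%, against 48.9%, 47.7% and 12.1% of all distal sites. In class 1, with 81 sites, the shares were 46.9%, 45.7% and 9.88%, against 26.2%, 25.9% and 4.19%. In class 5, with 77 sites, they were 84.4%, 85.7% and 52.0%, against 77.6%, 77.0% and 28.4%. Distal NRF1 sites (242) were kept at 80.6%, 78.5% and 33.9%. CTCF sites (1412), bound by the factor that anchors chromatin loops, were kept at 42.9%, 39.9% and 3.47%. Sites with 1 motif can also hold another, and these shares over sites are descriptions within libraries.

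**Figure D2:**
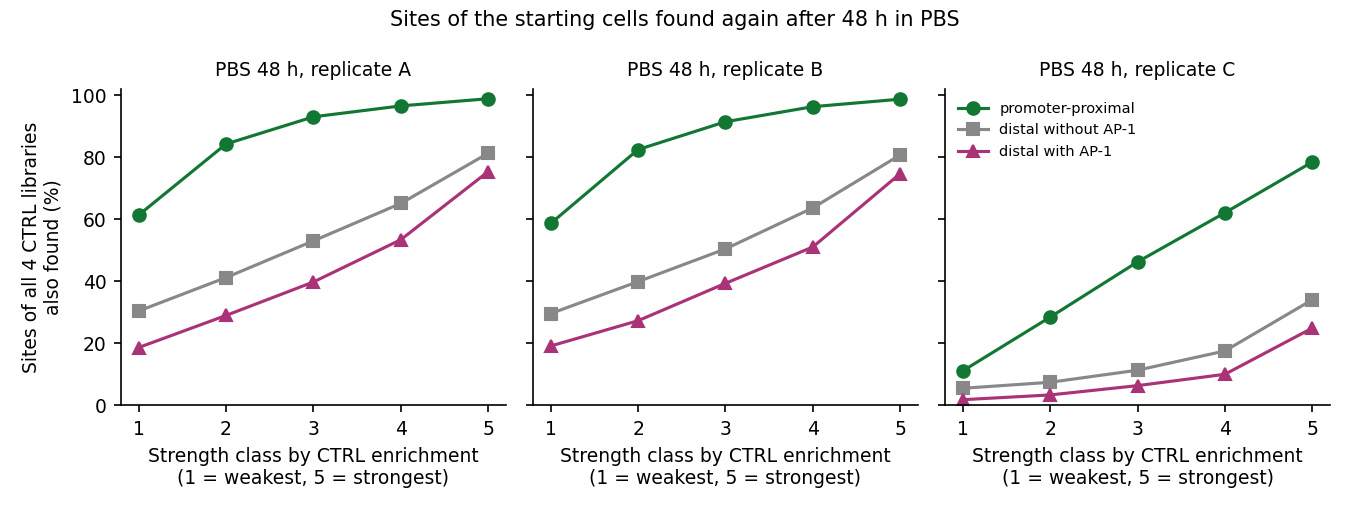
Percent of sites found in all 4 CTRL libraries that had a peak in PBS A, B and C, 1 panel per library, by strength class from CTRL fold enrichment (1 is the weakest). Lines are promoter-proximal sites, distal sites without and with an AP-1 element. Promoters lie above distal sites in all 5 classes, and distal AP-1 sites lie below the other distal sites, in each panel.

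Gene by gene, most promoters of the starting cells stayed detectable in the PBS libraries with more peaks. Of 19654 protein-coding genes, 67.0% ± 0.5 (SD, n = 4) had a peak within 1000 bp of a start in CTRL libraries, and 59.2%, 58.5% and 33.5% had one in PBS A, B and C. Of 12548 genes open in all 4 CTRL libraries, 91.5%, 90.3% and 52.4% were open in PBS A, B and C. In none of the 3 PBS libraries was a peak found for 802 of them, or 6.39%. CCND1, the D-type cyclin that growth factors induce in G1, was among these genes: its promoter had fold enrichments of 5.26, 5.43, 3.65 and 5.43 in CTRL A to D and no peak with PBS. IRS1, the adaptor that links the insulin and IGF1 receptors to PI3K, had 5.01, 7.69, 6.67 and 4.59 in CTRL A to D and no peak with PBS. The other members of the gene lists used below with this pattern were EPCAM (an epithelial adhesion protein), FN1 and SPARC (secreted matrix proteins) and ICAM1 (a leukocyte adhesion receptor induced by NF-kB). In all, 6 of the 195 list genes open in all 4 CTRL libraries had this pattern, against 6.39% of all such genes. In the test adjusted for peak number below, which calls few losses, CCND1 and IRS1 were not called. Their difference was −0.223 each (limma adjusted p = 0.809 and 0.807). The lack of a peak says that these promoters were not detected at the peak number of those libraries.

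Presence and absence were then tested site by site with an adjustment for peak number. Detection was scored 1 or 0, and the share expected of that library was subtracted, which is the share of sites found in as many of the 42 libraries that the library holds. Differences between groups were tested with limma over the 13 groups, with Benjamini-Hochberg (BH) adjustment, and called at an adjusted p below 0.01 with a difference of at least 0.5. The difference can pass 1, since an expected share is subtracted in both groups. By this rule 246 of 96766 sites were gained with PBS (0.254%) and 33 were lost (0.0341%). Without adjustment for the number of tests, 4343 sites were higher and 3771 lower at p below 0.05.

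The share of losses cannot be read against that of gains. Simulated sites that went from 0 of 4 to 3 of 3 libraries were called in 100 of 100 cases, and simulated sites that went from 4 of 4 to 0 of 3 in 0 of 100, while 3 of 96566 unchanged sites were called. In the libraries themselves 24294 sites had a peak in 4 of 4 CTRL and 0 of 3 PBS libraries. Of these, 41.1% were in introns, 51.4% between genes and 5.0% promoter-proximal, and 49.1% held an AP-1 element, against 39.03% of all sites. Of the 24294, 33 passed the adjusted test. In the opposite direction 160 sites had a peak in 3 of 3 PBS and 0 of 4 CTRL libraries, and 144 of these lay over 500 kb from any protein-coding start. Of the 160, 27 were called gained, so the simulated rate of 100 of 100 did not hold in the libraries themselves. The simulation drew each library on its own from its expected shares. Its changed sites were taken from sites found in fewer of the 42 libraries than any lost site (33 to 38). The 0 of 100 thus does not give the rate of calls among sites as common as those.

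Gained sites fell into a group far from genes and a group in introns and near genes. Of the 246, 93 lay over 500 kb from a protein-coding start (37.8%, against 5.44% of all sites), on 20 chromosomes. The strongest call was one of these, a site on chr20 (28825007-28825219) with DEFB115 as the nearest start, 2432593 bp away. It had fold enrichments of 3.88, 3.67 and 3.91 in PBS A, B and C and no peak in the 4 CTRL libraries (difference 1.51 ± 0.13 SE, limma adjusted p = 3.55e-08). Of the 10 sites with the lowest adjusted p, 7 were of this kind. Whether the sites over 500 kb from a start lie in repeated sequence was not tested, nor whether the reads there align to a single place. They are described by position only, and the nearest start serves as a label. Peaks so far from genes also took a larger place in PBS C than in the other libraries, as the enrichment values below show.

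Among gained sites within 500 kb of a start, the lowest adjusted p belonged to a site 176206 bp from FOXQ1, a forkhead factor of epithelial cells (chr6:1135801-1136157). Its fold enrichments were 3.70, 3.39 and 4.06 in PBS A, B and C, with no peak in CTRL (difference 1.57 ± 0.15 SE, limma adjusted p = 4.45e-07). A site in the CCDC186 intron (chr10:114142030-114142446) stood at 10.7, 8.54 and 4.43 with PBS and had no peak in CTRL. An intron site of CELSR1, a cadherin of planar cell polarity, stood at 5.30, 6.95 and 6.23 (chr22:46530736-46530956). A site 100949 bp from SLC16A9 stood at 6.95, 9.56 and 5.08 (chr10:59608622-59609189). All of these had a peak in each PBS library, and none in any CTRL library.

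The intron site of TRABD2B (chr1:47963647-47963954) whose palindrome is printed above had fold enrichments of 10.9, 7.46 and 5.22 in PBS A, B and C and no peak in CTRL (difference 1.65 ± 0.23 SE, limma adjusted p = 8.53e-05). The intron site of ABCC5, a transporter of cyclic nucleotides and organic anions, stood at 8.10 in PBS A and 7.17 in PBS B and had no peak in PBS C or in CTRL (chr3:183980529-183980715, limma adjusted p = 7.17e-05). Other gained sites found in PBS A and B alone lay 95295 bp from CXCR4, the receptor of the chemokine CXCL12, and 72459 bp from MYC. Within 50 kb of the genes of the lists read below, 4 sites were gained. Among them were an intron site of TEAD1 (7.23 and 8.53 in PBS A and B) and a site 14175 bp from PDK4 (3.97 and 3.73), a kinase that holds back glucose oxidation. Another was 1 of 2 sites at the promoter of BBC3, which encodes the p53 target PUMA. The PDK4 site was named after its values were seen. None of these 3 had a peak in PBS C. The gained BBC3 site had a peak in PBS A and B (5.89 and 6.84) and in CTRL A (3.72). The other BBC3 promoter site had a peak in all 4 CTRL libraries (6.025, 7.758, 5.68 and 6.05) and in no PBS library, and was not called. With both sites together the promoter was open in 4 of 4 CTRL libraries and in PBS A and B.

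Most gained sites rested on part of the libraries. Their adjusted p also depended on how rare a site was among all 42 libraries, and is no ranking by replication in PBS. The ENSG00000250803 site, in 2 of 3 PBS and 2 of 42 libraries, had a limma adjusted p of 5.47e-07. The TRABD2B site, in 3 of 3 PBS and 9 of 42 libraries, had 8.53e-05. Of the 246, 198 were found in 2 of 3 PBS and 0 of 4 CTRL libraries, 27 in 3 of 3 and 0 of 4, and 21 in at least 1 CTRL library. The 198 and the 27 met the filter of at least 2 of the 7 libraries through PBS libraries alone. Their adjusted p takes no account of that selection. PBS A and B both held 190 of them and PBS C 96. Without PBS A the fit called 96 gained sites, without PBS B 40, and without PBS C 297. Within the 7 libraries alone, limma called 216 gained sites, of which 27 were among the 246.

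CEBP and ATF4 elements were frequent in gained sites near genes. CEBP proteins and ATF4 are basic leucine zipper factors, the first known for epithelial and metabolic genes and the second for the response to amino acid shortage. Of the 146 gained distal sites within 500 kb of a start, 38.4% held the CEBP element, 19.2% the composite element TGATGNAA of ATF4 and CEBP, and 4.11% the glucocorticoid receptor element. Among all 77564 distal sites in that range the shares were 15.2%, 5.78% and 0.694%. AP-1 stood at 10.3% against 44.6%, and RUNX at 3.42% against 7.16%. These counts are over the called sites and carry no test of their own.

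Every one of the 33 lost sites had a peak in 4 of 4 CTRL and 0 of 3 PBS libraries, in 33 to 38 of all 42 libraries, in all PBS libraries of 24 h and in all EGF libraries of 48 h. The adjustment weighs absence most where a site is present nearly everywhere else. The site with the lowest adjusted p lay 526060 bp from CLINT1 (chr5:158384670-158385598) and had fold enrichments of 7.93, 7.44, 8.61 and 7.52 in CTRL A to D (difference −0.90 ± 0.14 SE, limma adjusted p = 0.000261). A site 108799 bp from PLEKHG7 (chr12:92593709-92594385) stood at 13.2, 13.4, 12.5 and 10.5 in CTRL. Intron sites were lost in WWTR1, which encodes the YAP partner TAZ (9.46, 11.4, 9.84 and 8.02 in CTRL A to D), in PTPN14, a phosphatase that restrains YAP (17.7, 15.9, 17.8 and 10.5), and in SIK3, a kinase that is inhibited by cAMP signalling (10.2, 13.1, 11.5 and 9.51). Promoter-proximal sites were lost at TMCC1, 457 bp from a start, and at ARHGDIB, 603 bp away. AP-1 elements lay in 42.4% of lost sites and RUNX elements in 18.2%, against 39.03% and 6.36% of all sites.

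Graded differences were tested at the 12109 sites with a peak in all 7 libraries. These were mostly strong sites, 5801 of them promoter-proximal, since the sparse PBS C had to hold them too, and a site that lost its peak with PBS is not among them. The log2 fold enrichment at the highest summit was quantile normalized, so that differences are relative to the other sites of the same library, and tested with limma on the 7 libraries at an adjusted p below 0.05 and a log2 difference of at least 0.5. Enrichment was higher with PBS at 817 sites (6.75%) and lower at 984 (8.13%). Scaling by the median in place of the quantiles gave 1128 higher and 903 lower, so that higher sites were 55.5% of calls in place of 45.4%. Without PBS C, which admits 31690 sites, 3682 were higher and 3906 lower. Of the 817 higher sites 811 were called again and of the 984 lower sites 354.

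Higher calls lay mostly at promoters, and lower calls mostly at distal sites. Of the 5801 promoter-proximal sites, 499 were higher (8.6%) and 111 lower (1.91%), with a median log2 difference of 0.13. Of the 5846 distal sites within 500 kb of a start, 210 were higher (3.59%) and 812 lower (13.9%), with a median of −0.13. The median of the normalized log2 enrichment over promoters was 3.35, 3.34, 3.35 and 3.34 in CTRL A to D and 3.48, 3.48 and 3.45 in PBS A to C, and the groups did not overlap. Signs of both medians were the same with median scaling (0.14 and −0.10) and without PBS C (0.26 and −0.11).

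Lower calls were more frequent at distal sites with an AP-1 element than at those without. Of 2543 such sites, 53 were higher (2.08%) and 442 lower (17.4%), with a median of −0.19. Of 3303 without it, 157 were higher (4.75%) and 370 lower (11.2%), with a median of −0.08. Library medians with the element were 3.54, 3.60, 3.58 and 3.62 in CTRL A to D and 3.38, 3.38 and 3.36 in PBS A to C. Promoters with a GC box of SP and KLF proteins (GGGCGGG), 2740 of 5801, were higher at 259 and lower at 35. The difference between sites with and without an element was not tested, as sites are not replicates.

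Sites over 500 kb from a start had a higher median in PBS C alone. Of 462 tested, 108 were higher and 61 lower. Their library medians were 3.29, 3.39, 3.25 and 3.37 in CTRL A to D, 3.29 in PBS A, 3.32 in PBS B and 3.61 in PBS C. Without PBS C, 146 of 1037 were higher and 176 lower. Such sites made up 9 of the 10 with the largest rise, led by a site on chr10 (40019544-40020079), 1925427 bp from the nearest start, that of ZNF37A. Its fold enrichment was 6.07, 9.31, 6.89 and 6.54 in CTRL A to D and 22.3, 20.7 and 22.3 in PBS A to C (log2 difference 1.73 ± 0.15 SE, limma adjusted p = 0.000170). There all 3 PBS libraries were above the 4 CTRL libraries. For the sites over 500 kb from a start, repeated sequence and unique alignment of reads were not tested here either.

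**Figure D3:**
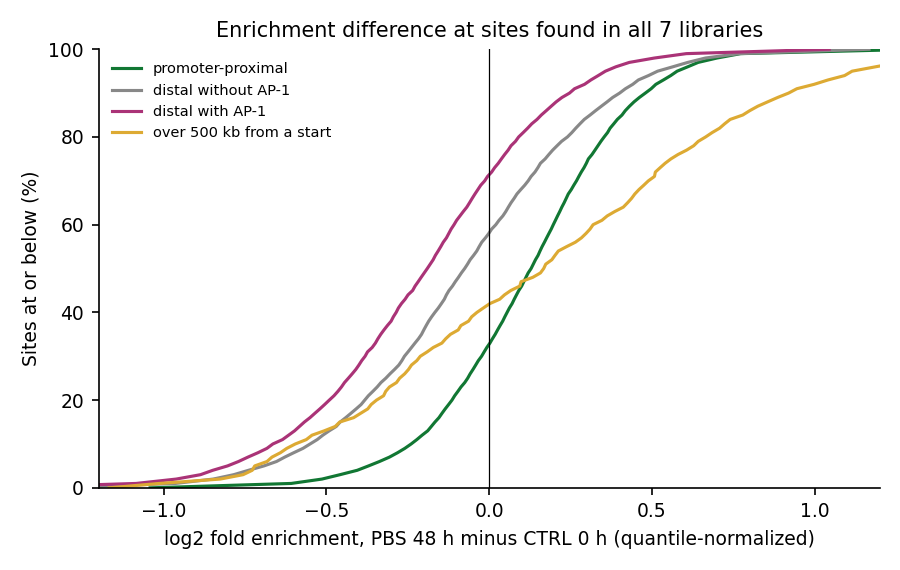
Log2 differences in quantile-normalized fold enrichment, PBS 48 h minus CTRL, as cumulative curves (percent of sites at or below a value) over the sites with a peak in all 7 libraries, by kind of site. Promoter-proximal sites are shifted up (median 0.13), and distal sites with an AP-1 element are shifted down the most (median −0.19).

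Of the 499 promoters that were higher, SMG9, part of the kinase complex of nonsense-mediated decay, had the largest difference. Its fold enrichment was 2.67, 3.48, 3.15 and 3.61 in CTRL A to D and 7.38, 9.09 and 5.11 in PBS A to C (log2 difference 1.32 ± 0.17 SE, limma adjusted p = 0.00069). The groups did not overlap. FLCN, folliculin, which acts in amino acid signalling to mTORC1, stood at 4.64, 5.97, 7.65 and 3.395 in CTRL and 10.9, 13.6 and 5.64 with PBS. In its deposited values PBS C lay within the range of CTRL, and the log2 difference after normalization was 1.15 ± 0.19 SE (limma adjusted p = 0.00258). UBE2B, a ubiquitin-conjugating enzyme of DNA damage tolerance, rose by 1.14, RPS12, a ribosomal protein, by 1.118, UTP25, a factor of ribosome biogenesis, by 1.08 and KMT2A, a histone methyltransferase, by 0.98. For UBE2B, UTP25 and KMT2A too, PBS C lay within the range of CTRL in deposited values. RPS12 stood at 7.28, 7.90, 9.74 and 6.67 in CTRL and 13.5, 16.3 and 11.2 with PBS, without overlap.

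Sites that fell most were distal, and 8 of the 10 held an AP-1 element. Among distal sites within 500 kb of a start, the element lay in 43.5% of those tested and 54.4% of those lower. Whether the difference depends on the strength of a site in CTRL was not tested. The site 182601 bp from GADL1 (chr3:31077035-31077683), with the 3 elements printed above, had fold enrichments of 16.3, 17.2, 19.5 and 16.0 in CTRL A to D and 7.43, 4.01 and 4.06 in PBS A to C (log2 difference −1.52 ± 0.19 SE, limma adjusted p = 0.000629). The LRMDA intron site (chr10:76103179-76103821) went from 18.7, 16.7, 19.1 and 18.7 to 8.21, 6.26 and 4.06. Neither pair of groups overlapped here. A site 129430 bp from DUSP10, a phosphatase that switches off the p38 and JNK kinases, fell by 1.26 on the log2 scale, and a site 7594 bp from AMBN by 1.31. The value 4.06 recurs because it was the most frequent of PBS C, at 266 of its peaks (1.69%), where few fragments lie at a summit.

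Promoters that fell were fewer. CYP4F3, a hydroxylase of leukotrienes and fatty acids, led them with 14.5, 16.0, 16.5 and 12.8 in CTRL A to D and 9.07, 5.73 and 4.04 in PBS A to C (log2 difference −1.04 ± 0.17 SE, limma adjusted p = 0.00187). RILPL2, KSR1, a scaffold of the ERK cascade, and IL1R1, the receptor of interleukin 1, fell by 1.03, 0.93 and 0.85 on the log2 scale. IL1R1 stood at 17.3, 14.3, 20.7 and 15.7 in CTRL and 9.29, 7.77 and 5.26 with PBS, without overlap. DDX60, an antiviral helicase, fell by 0.98.

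Motif content was summarised for each library as a deviation, the percent by which sites with a motif were found more or less often than the expected shares predict. For 27 motifs, searched on both strands within 100 bp of the summit, an exact permutation test over the 35 splits was used, with BH adjustment over the motifs. An adjusted p of 0.0429 was reached by 18 of them, each at the smallest unadjusted p that 3 against 4 libraries allow (exact permutation p = 0.0286), and for each of these the 3 PBS libraries lay on 1 side of the 4 CTRL libraries. The test ranks no motif above another, so the sizes are given. Without any 1 library the design cannot pass the threshold.

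The glucocorticoid receptor element had the largest rise in detection. It lay in 589 sites (0.609% of all), and its deviation was 2.18, −2.14, 5.07 and 0.36% in CTRL A to D and 26.5, 27.5 and 67.3% in PBS A to C. The difference of the means was 39.1 points (exact permutation p = 0.0286, two-sided). Over sites within 500 kb of a start the difference was 44.6 points, and over distal sites alone 47.4. Among sites with a peak in all 7 libraries the element lay in 0.933% of the 12109, 0.49% of the higher and 0.61% of the lower ones. Of 100 such distal sites within 500 kb of a start, 3 were higher and 6 lower (against 3.59% and 13.9% of all distal sites), with a median log2 difference of −0.12 against −0.13. Hydrocortisone was present in the medium of both groups.

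Motifs of promoters rose as well. NRF1 (GCGCANGCG, in 1.56% of sites) stood at −0.37 to 1.58% in CTRL and 12.2, 11.1 and 18.5% with PBS, SP and KLF (9.23% of sites) at −0.38 to 2.41% and 10.4, 9.53 and 14.9%, and ETS (CCGGAAGT, in 0.976%) at −0.12 to 0.48% and 9.10, 8.30 and 14.7%. The E-box of MYC and its relatives (CACGTG, in 3.58%), its extended form GTCACGTG, which the lysosomal regulators of the TFE family bind and which contains the first, the CRE of CREB (TGACGTCA), EGR, FOX and GRHL also passed, all higher with PBS. FOX (in 3.76% of sites, difference 3.67 points) lost its call with the motif within 50 bp of the summit (0.62 points, exact permutation test, adjusted p = 0.686). GRHL (in 0.0661% of sites, difference 14.6 points) lost its call over distal sites, where PBS A, B and C stood at 27.5, 30.8 and −14.9% (exact permutation test, adjusted p = 0.339). For TFE the PBS libraries stood at 16.2, 12.3 and 22.9% and CTRL between −1.06 and 1.19%. Over distal sites alone NRF1, SP and KLF, ETS, TFE and CRE were higher too, with an adjusted p of 0.0386 for each.

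RUNX and AP-1 had the largest falls. RUNX (in 6.36% of sites) stood at 0.74, 1.97, 3.503 and 1.56% in CTRL A to D and −16.6, −15.5 and −28.7% in PBS A to C, a difference of −22.2 points. AP-1 (in 39.03% of sites) stood at −0.34, 3.58, 2.29 and 2.78% in CTRL and −11.7, −12.2 and −29.7% with PBS, a difference of −19.9 points. TEAD (CATTCCA, in 5.78%) lay at −10.5, −10.8 and −12.8% with PBS and at −0.21 to 2.56% in CTRL. STAT (TTCCNGGAA), SRF, the factor of serum response, the E-box of ZEB and SNAI (CACCTG) and SREBP, the regulator of sterol synthesis, fell too. The same 7 were lower over distal sites alone.

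IRF, CEBP, ATF4 and CTCF also depended on the sites or the libraries used. IRF passed with −12.3 to −7.76% in CTRL and 3.19, 5.75 and 48.7% with PBS, but over sites within 500 kb of a start the sign turned to a difference of −4.05 points (exact permutation p = 0.143). CEBP and ATF4 did not pass over all sites, with PBS C at −2.94 and −1.18% and PBS A and B between 5.79 and 8.33%. Over distal sites CEBP was higher by 9.19 points, ATF4 by 9.88 and the p53 and p63 family by 12.9, each with an adjusted p of 0.0386, and over sites within 500 kb all 3 were higher as well. CTCF stood at 9.55 and 4.54% in PBS A and B and −39.2% in PBS C, and at −4.96 to 2.93% in CTRL.

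**Figure D4:**
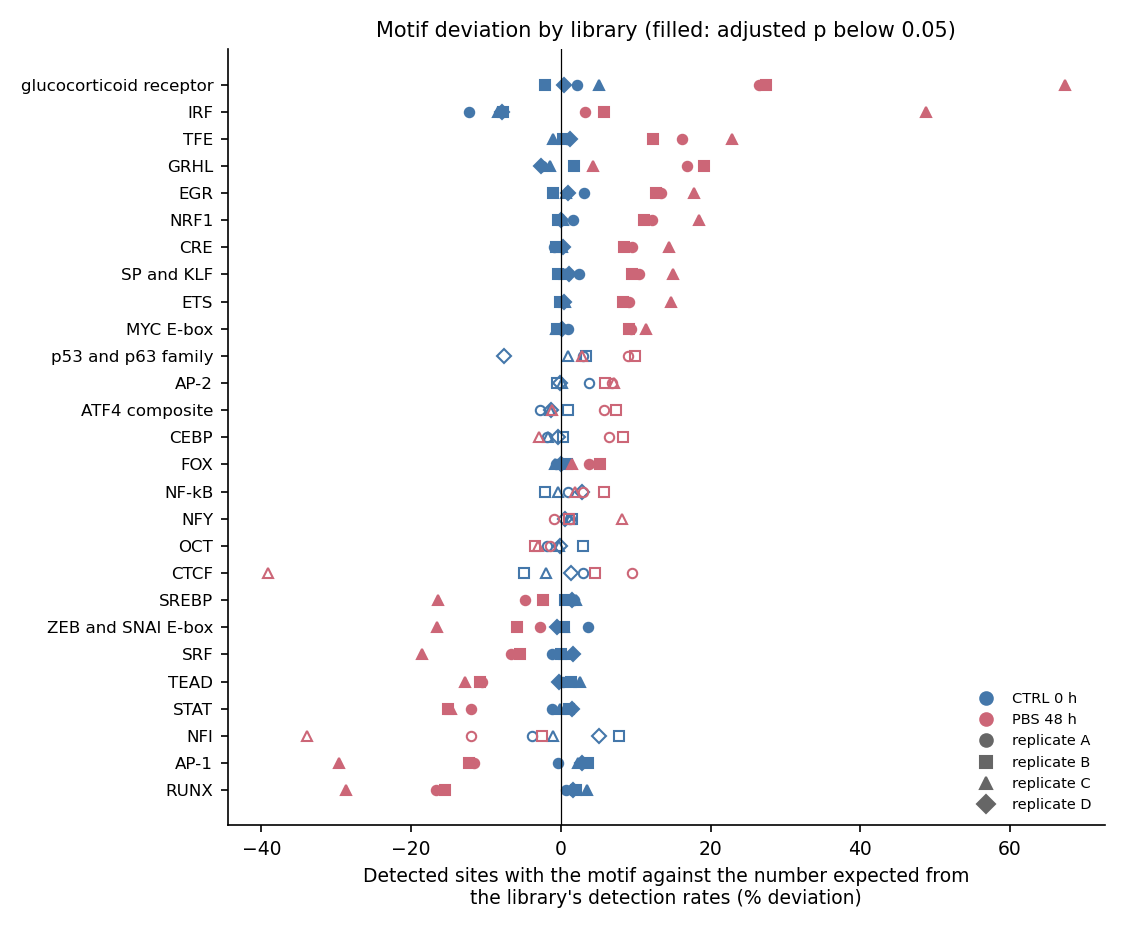
Motif deviations in percent, 1 point per library, for the 27 motifs, CTRL and PBS 48 h. The glucocorticoid receptor element is the highest with PBS (26.5, 27.5 and 67.3%), and RUNX and AP-1 are the lowest of the motifs that passed the test, which have filled symbols.

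Promoters of 17 lists of genes were read for pathways that growth factors and hormones are known to touch. Of the 229 genes on them, 104 had a promoter site in all 7 libraries, of which 14 were higher (13.5%, against 8.6% of all tested promoters) and 1 lower (0.962%, against 1.91%) with PBS, with a median log2 difference of 0.21 against 0.13 for all promoters. Within 50 kb of the starts lay 1880 sites, of which 354 were tested for enrichment. Of these, 31 were higher (8.76%, against 6.75% of all tested sites) and 10 lower (2.82%, against 8.13%). Of the 1880, 4 were gained (0.213%, against 0.254% of all sites) and 0 lost (against 0.0341%). No list had an adjusted difference in detection over its sites (0 of 17 at a BH adjusted p below 0.05, exact permutation test). The immediate early genes alone had an unadjusted p of 0.0286, with a difference of 0.07 in adjusted detection.

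Few promoters of the EGFR and ERK and the immediate early lists could be tested (6 and 12), as a peak in PBS C was needed. Of these, 0 were called lower. At the share of all tested promoters, 1.91%, so small a number can hold no lower call at all. Of 17 EGFR and ERK genes, 16 or 17 were open in each CTRL library and 15, 16 and 6 in PBS A, B and C. Of 16 immediate early genes, 13 to 15 were open in CTRL libraries and 14, 14 and 13 in PBS A, B and C. EREG and EGR3 had a promoter peak in some CTRL libraries and in no PBS library. For EGFR ligands and ERK feedback genes, 6 promoters were tested, of which 1 was higher and 0 lower, with a median of 0.34. DUSP5, a nuclear phosphatase of ERK, stood at 5.60, 6.81, 6.37 and 4.095 in CTRL A to D and 9.33, 8.97 and 6.33 in PBS A to C (log2 difference 0.81 ± 0.15 SE, limma adjusted p = 0.00429). Of 12 promoters of immediate early genes, 2 were higher and 0 lower, with a median of 0.37: JUN by 0.60 and FOSL1, which encodes the AP-1 protein FRA1, by 0.56. JUN stood at 9.13, 9.12, 9.50 and 8.16 in CTRL and 11.3, 11.3 and 9.94 with PBS, without overlap. For FOSL1 and DUSP5, PBS C lay within the range of CTRL in deposited values. Distal sites of these pathways were called in both directions. A site 19666 bp from FOS was higher (6.89, 7.42, 6.48 and 7.02 against 9.26, 9.81 and 9.33), and an intron site of EGFR was lower (16.9, 20.2, 16.2 and 13.9 against 10.4, 9.47 and 5.28).

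Few promoters of the cell cycle and survival lists were called, as among all tested promoters, of which 8.6% were higher and 1.91% lower. Of 10 promoters of cell cycle drivers 0 were higher and 1 lower, with a median of 0.12: MCM2, part of the replicative helicase, stood at 18.8, 14.9, 18.0 and 13.9 in CTRL and 11.8, 9.32 and 4.05 with PBS (log2 difference −0.79 ± 0.20 SE, limma adjusted p = 0.0142). Of 9 promoters of cell cycle inhibitors and quiescence genes, TOB1, an antiproliferative protein, was higher by 0.63 and 0 were lower (median 0.21). Of 9 of the insulin and FOXO list 0 were called, with a median of −0.04, and a site 2753 bp from PDK4, a FOXO target, was higher by 0.77. Of 8 apoptosis promoters BCL2L1 was higher by 0.52 after normalization and 0 were lower (median 0.28). In deposited values its PBS C (4.30) lay below the range of CTRL (6.04 to 7.01). An intron site of BMF, a BH3-only protein, was higher by 0.89 (5.72, 5.25, 5.62 and 5.79 against 9.64, 10.9 and 6.03). Of 9 autophagy and lysosome promoters MAP1LC3B was higher by 0.50 and 0 were lower (median 0.11). For TOB1, MAP1LC3B and the site 2753 bp from PDK4, PBS C lay within the range of CTRL in deposited values.

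Glucocorticoid response genes had the highest promoter median of the lists. Over tested sites within 50 kb their median was 0.16, below cAMP response (0.21) and immediate early genes (0.20), among others. Of 9 promoters 3 were higher and 0 lower, with a median of 0.47. MT2A, a metallothionein, stood at 4.64, 4.40, 4.48 and 2.85 in CTRL A to D and 7.02, 7.69 and 5.18 in PBS A to C (log2 difference 0.88 ± 0.15 SE, limma adjusted p = 0.00291). PER1, a clock gene that hormone induces, stood at 5.58, 6.36, 4.41 and 4.31 in CTRL and 7.20, 7.37 and 7.08 with PBS. Neither pair of groups overlapped. SGK1, a kinase, was higher by 0.54, with PBS C (6.77) inside the range of CTRL (6.67 to 9.50) in deposited values. A site 1331 bp from DUSP1 was higher by 0.67 (limma adjusted p = 0.0480). None of the called sites at MT2A, PER1, SGK1 and DUSP1 held the glucocorticoid receptor element within 100 bp of the summit.

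For the lists of other pathways and states, sterol and fatty acid synthesis had 2 of 8 promoters higher and 0 lower (median 0.24), INSIG1, which holds SREBP in the endoplasmic reticulum, by 0.56, and FASN, fatty acid synthase, by 0.50. Of 7 cAMP response promoters 0 were called (median 0.19), and of 4 of the inflammatory and NF-kB list 0 (median 0.16), while sites 47983 bp from CXCL1 and 32773 bp from IL1B were lower by −0.71 and −0.83 on the log2 scale. Of 5 YAP and TEAD targets LATS2, a kinase that restrains YAP, was higher by 0.60 after normalization and 0 were lower (median 0.14). In deposited values its PBS C (9.13) lay below the range of CTRL (9.67 to 12.8). Of 4 basal promoters S100A2, a calcium-binding protein, was higher by 0.77 (median 0.15), and a site 18247 bp from LAMB3 was lower by −0.67. Of 2 luminal promoters KRT7 was higher by 0.62 (median 0.34), and of 2 mesenchymal promoters 0 were called (median 0.13). For INSIG1, FASN, S100A2 and KRT7, PBS C lay within the range of CTRL in deposited values. An intron site of TGFBI, a matrix protein, was higher (4.77, 4.77, 5.22 and 4.55 against 8.63, 8.83 and 6.10). No promoter of the lists of other cell types and of deleted genes had a peak in all 7 libraries.

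**Figure D5:**
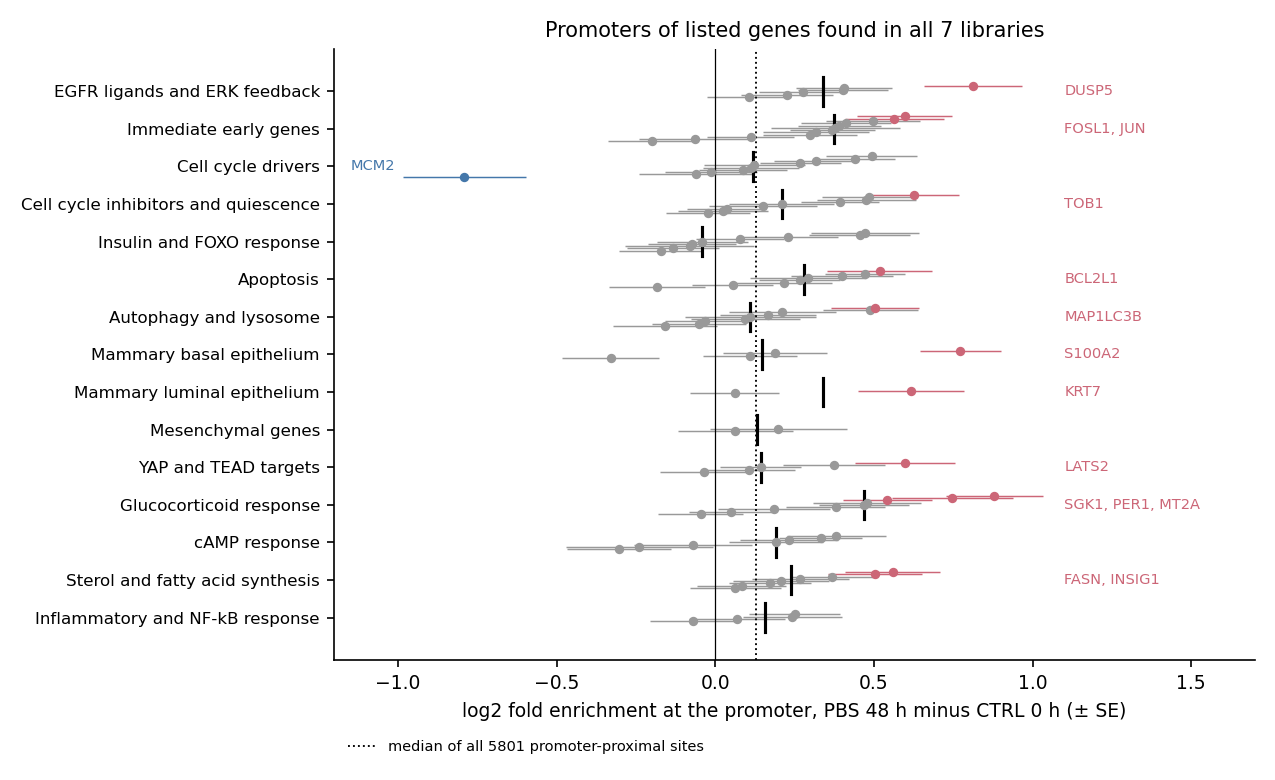
Log2 differences in fold enrichment, PBS 48 h minus CTRL, for the promoters of list members with a peak in all 7 libraries, 1 point per gene, with a black bar at the median of each list. MT2A (0.88) and DUSP5 (0.81) are among the highest, MCM2 (−0.79) is the 1 promoter called lower, and the median of 1 list, insulin and FOXO response, lies below 0. Bars on the points are SE, and the dotted line is the median of all promoter-proximal sites (0.13).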

How the data were processed

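ATAC-seq of MCF10A cells was analysed from peak files, 1 per library. The authors trimmed reads with Trimmomatic 0.36.5, aligned them to hg38 with Bowtie2 2.3.4.1, removed duplicates with Picard and called peaks with MACS2 2.1.1.20160309.5 at a q of 0.01, each library alone with no control (tools and versions per the submitters' processing notes). Fold enrichment at a summit is the deposited ratio of pileup plus 1 to local background plus 1, unscaled between libraries. The deposited −log10 values are those of the p and q at the summit. The deposited score is made from q, and was not used. Read counts are not given, so the depth is unknown and no counting interval is printed.

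Peaks were merged over the 7 libraries (overlap of at least 1 bp), kept in at least 2 of them, and annotated on hg38 from GENCODE 44, using basic transcripts (63667) of protein-coding genes (19654). A site was promoter-proximal within 1000 bp of a start. Detection was tested with limma 3.58.1 (R 4.3.3) over all 13 groups (29 residual degrees of freedom), and quantile-normalized log2 fold enrichment on the 7 libraries (5 residual degrees of freedom), both with BH adjustment. Single values per library had exact permutation tests. Scripts were tested on simulated data: the enrichment fit recovered 49 and 50 of 50 sites at log2 differences of 1 and −1, 25 and 24 of 50 at 0.5 and −0.5, and called 0 of 11909 unchanged sites. No 2 of the 7 files were identical. Same-letter libraries did not deviate together. Background coverage was recovered from peaks with −log10 p of at most 250.

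Named sites were, per direction, the 10 with the lowest adjusted detection p or the largest log2 difference, called sites at list promoters, the nearest called site within 50 kb of each list gene, and the first 3 intron or intergenic detection calls for sequences. Those within 500 kb of a start and at promoters were added in the same order after values were seen. The comparison, the 17 gene lists and the 27 motifs were chosen with earlier results of these data known. Alternatives are described at the end. The 35 libraries of other groups entered the detection fit and a count of lost sites found in PBS 24 h and EGF 48 h libraries. Some named sites and genes are not reported here.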

Additional observations from a re-analysis of the deposited data

Results flagged for a closer look

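Among 50 sets of 4 CTRL values (peak measures, motif deviations and gene lists), 3 had 1 library whose gap to the others exceeded Dixon's 95% critical value for 4 samples, and chance alone does so in about 1 in 20 sets. The AP-2 motif deviation of CTRL A was 3.70%, with the other CTRL libraries between −0.52 and 0.13%. The IRF deviation of CTRL A was −12.3%, with the others between −8.41 and −7.76%. The mean adjusted detection over the 4 sites near CDKN2A, CDKN2B and MTAP was −0.239 in CTRL D and 0.0079 to 0.0144 in the other CTRL libraries.

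Peaks on contigs other than the primary chromosomes, which entered no comparison of sites, made up 3.00% of all peaks in the PBS libraries on average (2.72 to 3.49%) and 2.19 to 2.48% in the CTRL libraries, without overlap (exact permutation p = 0.0286, two-sided).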

How the results depend on the processing

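The depth is unknown, and a site absent from sparse PBS libraries cannot be told apart from one that was not detected. The 246 gained sites became 38 with raw detection, 693 with an equal number of the strongest peaks of each library, 50 at sites in at least 3 libraries and 147 within 500 kb of a start (added after the data were seen). The 33 lost sites became 8 in a fit of the 7 libraries alone, 136 with expected shares from the other 35 libraries, 2698 with raw detection, 737 with equal numbers of peaks, 14 at −log10 q of at least 5, 93 at sites in at least 1 library, 16 at sites in at least 3 and 15 within 500 kb. Leaving out 1 library gave 40 to 303 gained and 14 to 165 lost sites: 96 gained without PBS A, 40 gained and 14 lost without PBS B, 165 lost without PBS C, and 16 lost without any 1 CTRL library. The 817 higher and 984 lower sites became 366 and 476 at −log10 q of at least 5 and 2927 and 3713 at sites in at least 2 libraries of each group, and 584 to 3682 and 714 to 3906 without 1 library, the upper ends without PBS C. The cause was not tested.

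The log10 peak number difference ranged from −0.587 to −0.337 and the promoter share difference from 11.8 to 17.2 points without 1 library, where no p below 0.05 is possible (smallest 0.0667 or 0.10). For the same reason the motif count went from 18 to 0 (0 to 0) without any 1 library, and it was 20 over distal sites and 21 within 500 kb. The list count stayed at 0 (0 to 0). IRF turned to −4.05 points within 500 kb. Same-lettered libraries correlated at −0.084 to 0.031, and the labels do not say what a letter shares. With the letters as a replicate block, 237 sites were gained and 39 lost, 470 higher and 628 lower, and the peak number and promoter share differences were −0.501 and 15.3 (exact permutation p = 0.25 each, the smallest that 3 pairs allow). No named site changed sign under the alternatives run, but calls were lost: 8 of 35 log2 differences under the block and 8 with lane as a term, and, of 20 detection differences, 15 in the fit of the 7 libraries alone and 4 with lane as a term. Leaving out 1 library lost up to 7 and up to 4 of these calls.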
